A study of Mus musculus with 2 samples.

Results

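The genes described here are those of MHC class I antigen presentation and peptide loading: the light chain B2m, the heavy chains H2-K1, H2-D1, H2-Q7 and H2-T23, the peptide transporter Tap1 and Tap2, the loading chaperone Tapbp, and the inducible proteasome subunits Psmb8 and Psmb9. They were chosen by gene symbol in the platform annotation of the array, and probe sets that list a member together with other genes were kept. This gave 30 probe sets for all 10 member genes, of 22626 probe sets that are not array controls and 12393 genes in all. Of the 30 probe sets, 24 name 1 gene and 6 list several.

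The study compared uterine epithelial cells of mice labelled Stat3 knockout with those of control mice, both taken in the morning of day 4 of pregnancy, before the embryo attaches. Both titles read as Stat3 flox control mice, flox being the usual short name for an allele flanked by recombination sites, and the genotype label and description separate the samples. The driver of recombination, the strain and the age of the animals are not stated in the labels. The epithelium was freed from the uterus with trypsin. Each group was pooled RNA on 1 array of short oligonucleotides (Affymetrix Mouse Genome 430A 2.0), with n = 3 per sample in the design text. A value is a signal, the brightness of a probe set after the authors' MAS5 processing, on a linear scale. With 1 array per group there is no replicate check: no test was possible, no p-value or SD is given, and differences are described by their size. The number of arrays limits the precision of every ratio.

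MHC class I molecules display short peptides from inside the cell on the cell surface, where T cells and natural killer cells read them. The proteasome cuts proteins into peptides, the TAP transporter carries the peptides into the endoplasmic reticulum, and tapasin, the product of Tapbp, holds an empty heavy chain and its B2m light chain next to the transporter until a peptide is bound. Interferons raise the transcription of most of these genes, and interferon-gamma makes cells exchange catalytic subunits of the proteasome for the inducible ones that Psmb8 and Psmb9 encode. STAT3 carries signals of leukaemia inhibitory factor and interleukin 6 family cytokines to the nucleus, and leukaemia inhibitory factor is needed for implantation in the mouse.

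The promoters of the heavy chain genes are shown first because these genes had ratios in the same direction. As background, control elements of a similar kind are known in the separate promoter of the light chain gene. The sequences are those of RefSeq (GRCm38.p6), which had entries for 9 of the 10 members; Tap2 was not matched. Each window covered the 250 bases before the start of the gene. Capitals mark the kappa-B site of enhancer A (the first capitals in each line below), the interferon regulatory factor (IRF) element AANNGAAA, the core TGACG of the X2 element and the core ATTGG of the Y box, each searched on both strands. In the windows printed here no motif overlapped another. In H2-K1 (chr17:34000354-34000478, minus strand), H2-D1 (chr17:35262903-35263027, plus strand) and H2-Q7 (chr17:35439002-35439126, plus strand) the 4 motifs stood in the same order:
H2-K1: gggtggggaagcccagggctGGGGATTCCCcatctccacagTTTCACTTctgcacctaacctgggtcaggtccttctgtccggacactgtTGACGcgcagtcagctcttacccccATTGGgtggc
H2-D1: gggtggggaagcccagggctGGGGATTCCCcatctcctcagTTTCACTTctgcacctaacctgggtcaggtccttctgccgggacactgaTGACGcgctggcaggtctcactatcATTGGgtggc
H2-Q7: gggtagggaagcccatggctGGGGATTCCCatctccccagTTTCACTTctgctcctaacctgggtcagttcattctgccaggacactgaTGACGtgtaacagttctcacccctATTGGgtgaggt
Over these stretches H2-K1 and H2-D1 shared 91.2% of aligned positions, and H2-Q7 shared 84.3% with either of them. The letters of the kappa-B site, which were picked with the class I promoters in view, occur in 28 (0.0852%) of the 32851 promoter entries of the table. The IRF element occurs in 21.3% of them, the X2 core in 17.8% and the Y box core in 33.8%. All 4 motifs together were found in the entries of 3 genes, H2-K1, H2-D1 and H2-Q7.

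The promoter of B2m (chr2:122147530-122147648, plus strand) held an IRF element, an X2 core and a Y box core, and that of H2-T23 (chr17:36032739-36032845, minus strand) held a pair of IRF elements and a Y box core, with neither the kappa-B letters nor the X2 core in the window:
B2m: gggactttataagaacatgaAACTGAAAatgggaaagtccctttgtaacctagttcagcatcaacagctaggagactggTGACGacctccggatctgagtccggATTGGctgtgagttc
H2-T23: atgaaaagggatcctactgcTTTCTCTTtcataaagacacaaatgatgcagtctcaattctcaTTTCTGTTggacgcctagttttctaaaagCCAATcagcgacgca
Psmb9 and Tap1 are transcribed away from each other, and the whole stretch between their starts (chr17:34187331-34187555, printed on the plus strand, the strand of Tap1) is 225 bases long. It is shown because these neighbours had nearly the same ratio. It held an X2 core and a Y box core:
Psmb9 to Tap1: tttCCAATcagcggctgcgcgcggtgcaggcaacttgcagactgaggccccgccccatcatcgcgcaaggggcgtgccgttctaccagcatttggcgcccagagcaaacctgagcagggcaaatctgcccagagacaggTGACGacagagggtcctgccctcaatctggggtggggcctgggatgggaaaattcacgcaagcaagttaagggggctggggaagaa
Psmb8 (chr17:34198078-34198116, plus strand) was the member whose window held the letters TTCNNNGAA, the form of site that STAT dimers bind, which occur in 7.02% of entries; they are in capitals here:
Psmb8: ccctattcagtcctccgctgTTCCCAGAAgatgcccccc
The window of Tapbp, not printed, held Y box cores and no other motif searched. The letters of the IRF element were not found in the windows of Tap1, Psmb9, Psmb8 or Tapbp. These matches describe letters in a window and show no binding, and a link between the motifs and the ratios was not tested.

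All 10 member genes had a signal at least 2-fold higher in the Stat3 knockout array, when each gene was read by its brightest probe set, and 0 were at least 2-fold lower. Over the whole array, 614 of 8306 genes with a ratio (7.39%) were higher by 2-fold or more, while 824 (9.92%) were lower by 2-fold or more. The member genes were chosen with such results known, so the count describes them and is no test. The median log2 ratio of knockout over control was 1.54 in the members and 0.05 over all genes with a ratio. The lowest member ratio was 1.06, of Tapbp, and the highest 4.27, of the probe set that reads H2-Q7. Signals under 14.0, the 40th percentile of all signals, were set to that floor; a gene under it on both arrays has no ratio, and where 1 array was under it the fold is given as at least its value. In bulk RNA, more cells of a type and more RNA per cell cannot be told apart.

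By probe set, 23 of the 30 had a ratio and 21 of these were higher by 2-fold or more, with 0 lower by as much. The same share over all probe sets with a ratio was 7.56% higher and 8.9% lower (14355 probe sets). A probe set that passes the floor only through the knockout array has to be higher there, and this was the case for 2 of the 23. The 21 that were over the floor on both arrays all had a ratio above 0, and 20 of them were at least 2-fold higher. The other 7 were under the floor on both arrays: 3 of Tap1, 3 of H2-D1 and 1 that lists H2-D1 with H2-Q2 and Gm38417.

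**Figure D1:**
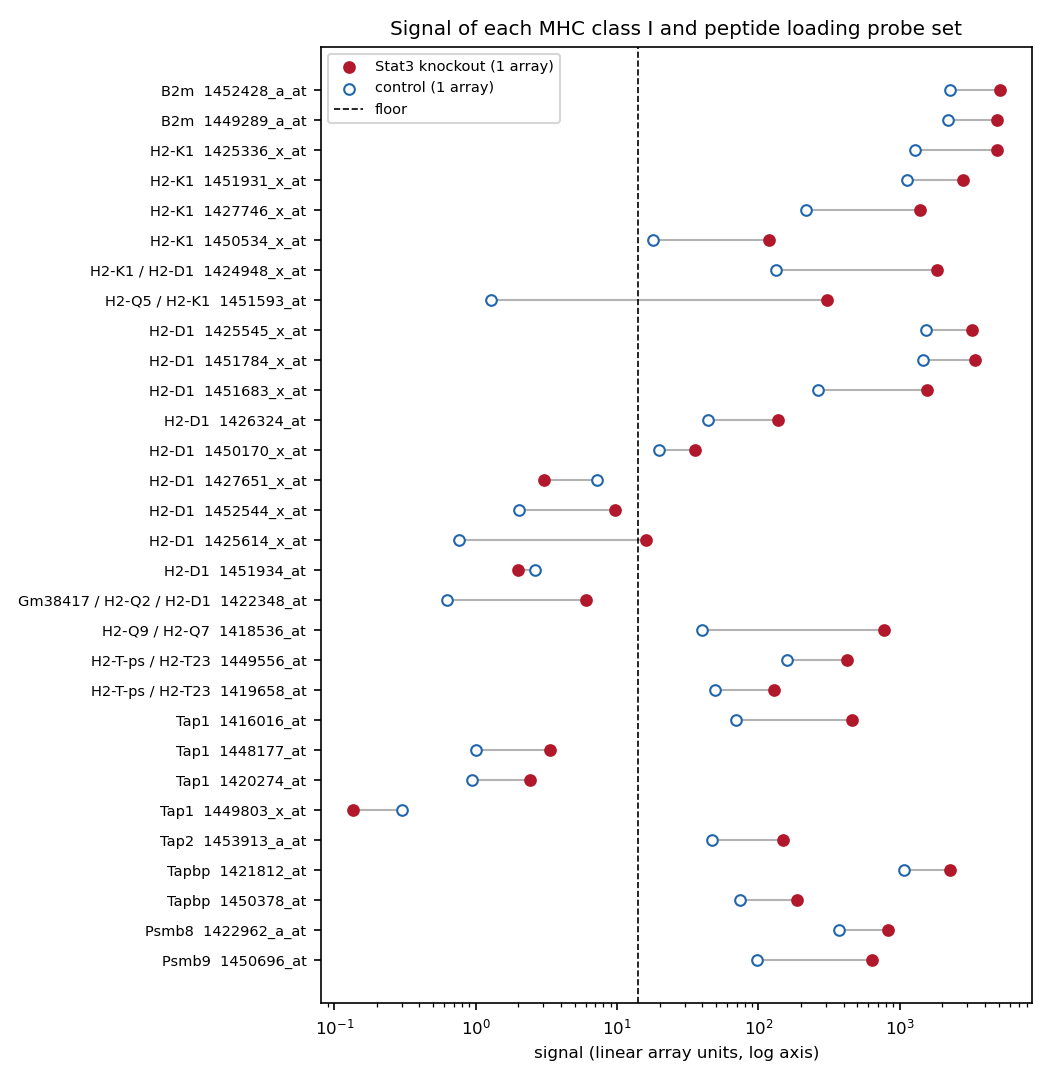
Signal of each of the 30 member probe sets on a log axis in linear array units, with the Stat3 knockout array as a filled point, the control array as an open point, and the floor of 14.0 as a dashed line. In the 21 probe sets right of the floor on both arrays the knockout point lies to the right of the control point.

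B2m encodes the invariant light chain of every class I molecule. Its probe set 1452428_a_at had a signal of 5089 in the knockout and 2261 in the control, which was 2.25-fold higher (log2 ratio 1.17). The other probe set, 1449289_a_at, had 4908 in the knockout and 2210 in the control, 2.22-fold higher. The pair thus gave nearly the same ratio.

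H2-K1 and H2-D1 encode the classical heavy chains, which present peptides to cytotoxic T cells. The brightest H2-K1 probe set (1425336_x_at) had a signal of 4858 in the knockout and 1290 in the control, or 3.77-fold higher. Each of the 4 probe sets that name H2-K1 alone is an _x_at design, a suffix for designs that can read several transcripts. Other genes may therefore add to their signals. All 4 had folds past 2 in the knockout, but their folds ran from 2.49 to 6.56. The probe set with 2793 in the knockout and 1121 in the control gave the lowest of these. The probe set with 118 in the knockout and 17.96 in the control gave the highest, and another, with 1391 in the knockout and 216 in the control, was 6.44-fold higher. The H2-K1 ratios therefore differed widely among probe sets. As a guide, the usual spread between probe sets of 1 gene on these arrays was an SD of 0.28 (log2) per probe set (2853 genes). It was taken from the brightest pair of each gene. Dimmer probe sets are not covered by this SD, so it is no like measure for the range over all 4 of H2-K1.

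H2-D1 showed a similar scatter, and most of its probe sets are also _x_at designs. Of the 9 probe sets that name it alone, 4 were past 2-fold in the knockout, all higher, 2 were within 2-fold and 3 were under the floor on both arrays. The brightest pair had 3237 and 3378 in the knockout, against 1541 and 1460 in the control, for 2.10-fold and 2.31-fold higher. Probe set 1451683_x_at, with 1567 in the knockout and 263 in the control, was 5.96-fold higher, and 1426324_at, with 138 and 43.8, was 3.16-fold higher. The lowest ratio over the floor on both arrays was 1.79-fold, from 35.5 in the knockout and 19.9 in the control. The remaining one, with 16.1 in the knockout and 0.76 in the control, is a bound of at least 1.15-fold against the floor.

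The 3 largest folds among the members, that of H2-Q7 included, came from probe sets that list several class I genes. Probe set 1424948_x_at, which lists H2-K1 and H2-D1, had a signal of 1820 in the knockout and 133 in the control, or 13.6-fold higher. Probe set 1451593_at, which lists H2-Q5 and H2-K1, had 307 in the knockout and 1.27 in the control, under the floor, which is at least 21.9-fold higher. It was the widest contrast among the members, while the probe sets that name H2-K1 alone had folds of at most 6.56. Class I genes are, as background, among the most variable between mouse strains, and the annotation gives different source sequences for these probe sets. The labels do not state the alleles carried by the animals of each pool, so for a class I probe set a difference in allele and a difference in RNA level cannot be told apart.

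H2-Q7 encodes a Qa-2 heavy chain; Qa-2 is known in mice for its presence on early embryos and for its attachment to the membrane through a lipid anchor. It was read only by probe set 1418536_at, which lists H2-Q9 and H2-Q7, with a signal of 770 in the knockout and 39.8 in the control, or 19.3-fold higher. Among the 8306 genes with a ratio this was the 3rd highest. Genes outside the members were ranked only by probe sets that name them alone. A probe set of the neighbouring Qa-2 type genes H2-Q6 and H2-Q8 had 629 in the knockout and 35.1 in the control, 17.9-fold higher, and one that lists H2-Q6, H2-Q8 and H2-Q4 had 298 and 68.0, 4.38-fold higher. These 3 probe sets thus had the same direction, as did the one that lists H2-Q5 and H2-K1, while the one that lists H2-Q2, H2-D1 and Gm38417 had no ratio.

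H2-T23 encodes the heavy chain of Qa-1, which presents leader peptides of other class I chains to natural killer cell receptors. Both of its probe sets also list the pseudogene H2-T-ps. They had signals of 421 and 130 in the knockout, against 159 and 49.0 in the control. These were 2.65-fold and 2.64-fold higher, so the pair gave nearly the same ratio. The probe set that lists H2-T9, H2-T22 and H2-T10 had 369 in the knockout and 115 in the control, 3.22-fold higher.

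**Figure D2:**
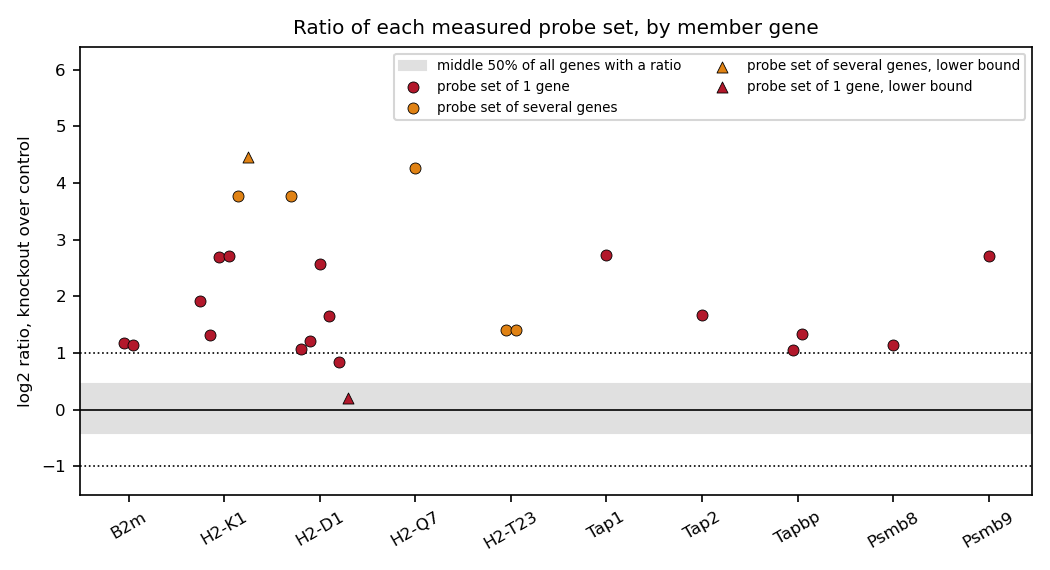
Log2 ratio of knockout over control (vertical axis) for each member probe set with a ratio, grouped by member gene; a probe set that lists 2 members is drawn under both, triangles are lower bounds, dotted lines mark 2-fold, and the band is the middle 50% of all genes with a ratio (-0.40 to 0.46). B2m, H2-T23 and Tapbp have close pairs, while H2-K1 and H2-D1 spread from 1.32 to 2.71 and from 0.84 to 2.58 among probe sets that name 1 gene and are over the floor on both arrays.

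Tap1 and Tap2 encode the chains of the peptide transporter. Tap1 (1416016_at) had a signal of 457 in the knockout and 69.2 in the control, 6.61-fold higher and the 18th highest ratio of all genes. Its other 3 probe sets were under the floor on both arrays, with signals of at most 3.37 in the knockout and 1.01 in the control, so this value rests on 1 probe set. Tap2 had 149 in the knockout and 46.7 in the control, 3.19-fold higher, from its only probe set.

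Tapbp, which encodes tapasin, had the smallest fold of the members by its brightest probe set: 2252 in the knockout and 1079 in the control, or 2.09-fold higher. A dimmer probe set, with 189 in the knockout and 74.6 in the control, was 2.53-fold higher. Both lay past the 2-fold limit, the brighter one narrowly.

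Psmb9 and Psmb8 encode the inducible beta1i and beta5i subunits, which replace the constitutive subunits encoded by Psmb6 and Psmb5 in the immunoproteasome. Psmb9 had a signal of 639 in the knockout and 97.3 in the control, 6.57-fold higher. Psmb8 had 819 in the knockout and 369 in the control, 2.22-fold higher. Each was read by 1 probe set. Psmb9 thus had a ratio close to that of Tap1, while Psmb8 was near B2m and Tapbp.

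The constitutive partners had ratios on the other side of 0. Psmb6 had a signal of 723 in the knockout and 1038 in the control, and Psmb5 had 912 in the knockout and 1354 in the control, log2 ratios of -0.52 and -0.57. Within the arrays, Psmb9 therefore differed from Psmb6 by 3.24 on the log2 scale (9.43-fold), and Psmb8 from Psmb5 by 1.72 (3.30-fold). These differences show unequal change and not which of the subunits changed. The third inducible subunit gene, Psmb10, named here after its values were seen, had 222 in the knockout and 255 in the control (log2 ratio -0.20), beside -0.96 for its constitutive partner Psmb7. Unlike Psmb8 and Psmb9, Psmb10 was not higher in the knockout. Its difference from Psmb7 was 0.76 on the log2 scale (1.70-fold), in the same direction as in the other pairs.

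Psmb9, Tap1, Psmb8 and Tap2 lie next to each other, in this order, within the class II region of chromosome 17. The 4 measured genes before them were Rxrb, Brd2, H2-DMa and H2-DMb2, and the 4 after them were H2-Ab1, H2-Aa, H2-Eb1 and Notch4. By their brightest probe sets, these neighbours had log2 ratios between -0.66 and 0.70. H2-DMb2, with 22.8 in the knockout and 7.94 in the control, and Notch4, with 7.61 in the knockout and 22.2 in the control, were under the floor on 1 array, so these end values are bounds, and the true differences may be larger. Neighbours were chosen by order along the chromosome among genes with a ratio.

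**Figure D3:**
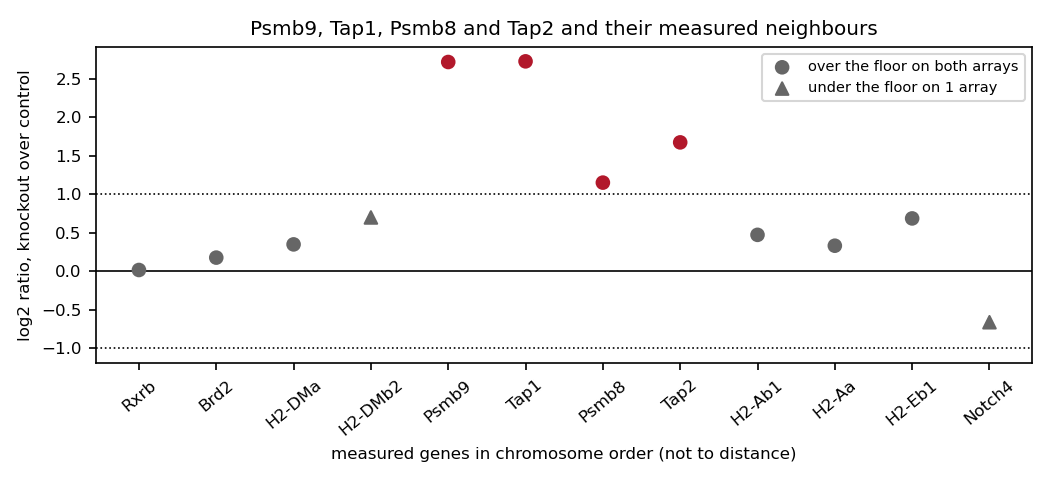
Log2 ratio of knockout over control (vertical axis) for Psmb9, Tap1, Psmb8 and Tap2 (red) and the 4 measured genes on each side (grey), in chromosome order and not to distance; triangles were under the floor on 1 array and dotted lines mark 2-fold. The red points lie between 1.15 and 2.72 and the grey ones between -0.66 and 0.70.

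The general helpers of class I folding had smaller ratios than the members. Of the 9 measured loading partners and chaperones of the endoplasmic reticulum, 0 were past 2-fold in either direction, and the median log2 ratio was -0.13, against 0.05 over all genes. Calr, which encodes calreticulin, had 1746 in the knockout and 1905 in the control. Pdia3, the disulfide isomerase that joins tapasin, had 1748 in the knockout and 1988 in the control, and Bcap31 had 1828 and 1447. These genes, the brightest of the list, differ by at most 1.26-fold, next to the 2.09-fold of Tapbp. Over the whole list the log2 ratios ran from -0.54 to 0.72, with 4 above 0 and 5 below.

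The rest of the proteasome leaned slightly the other way. All 14 constitutive 20S subunits had a log2 ratio under 0 by their brightest probe set, from -0.96 to -0.18 with a median of -0.45. None reached 2-fold. Other probe sets did not all lie under 0: those of Psmb1 gave up to 0.50 and those of Psma6 up to 0.08. The brightest were Psma6, with 1551 in the knockout and 2319 in the control, Psma3, with 1559 and 1954, and Psma2, with 1317 and 1550. Of 5 measured genes for Psmb10, activators and assembly, 1 was at least 2-fold lower: Psme3, a subunit of the nuclear PA28-gamma activator, with 55.5 in the knockout and 135 in the control (2.44-fold lower). Psme1, a subunit of the interferon-inducible activator PA28, had 1190 in the knockout and 1042 in the control. Psme4 had 984 and 947, and the assembly factor Pomp had 759 and 1035.

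Of 5 cytosolic peptidases, which trim or destroy peptides before transport, Thop1 alone was past 2-fold, and the median log2 ratio was -0.29. It breaks down such peptides and had 28.4 in the knockout and 56.8 in the control, 2.00-fold lower and at the limit. Npepps had 851 in the knockout and 426 in the control (log2 ratio 1.00, just within the limit), while the leucine aminopeptidase gene Lap3 had 363 and 687, and Blmh 470 and 563. In this list 4 of the 5 lay below 0 and 1, Npepps, above it, beside 3873 of 8306 below 0 over all genes with a ratio.

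Among other class I heavy chains and class I-like partners of B2m, 14 of 26 listed genes were read by a probe set of their own and 6 had a ratio. H2-M3, whose product presents formylated peptides, had 101 in the knockout and 33.8 in the control, or 2.98-fold higher. Hfe, the iron-regulating partner of B2m, was at least 2.07-fold lower, with 12.4 in the knockout, under the floor, and 29.1 in the control. The lipid-presenting Cd1d1 had 29.5 in the knockout and 14.8 in the control, Mr1 had 29.96 and 17.7, and the Fc receptor gene Fcgrt had 24.2 and 14.5. These dim genes lay within 2-fold, and their median with the other members of the list was 0.75.

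**Figure D4:**
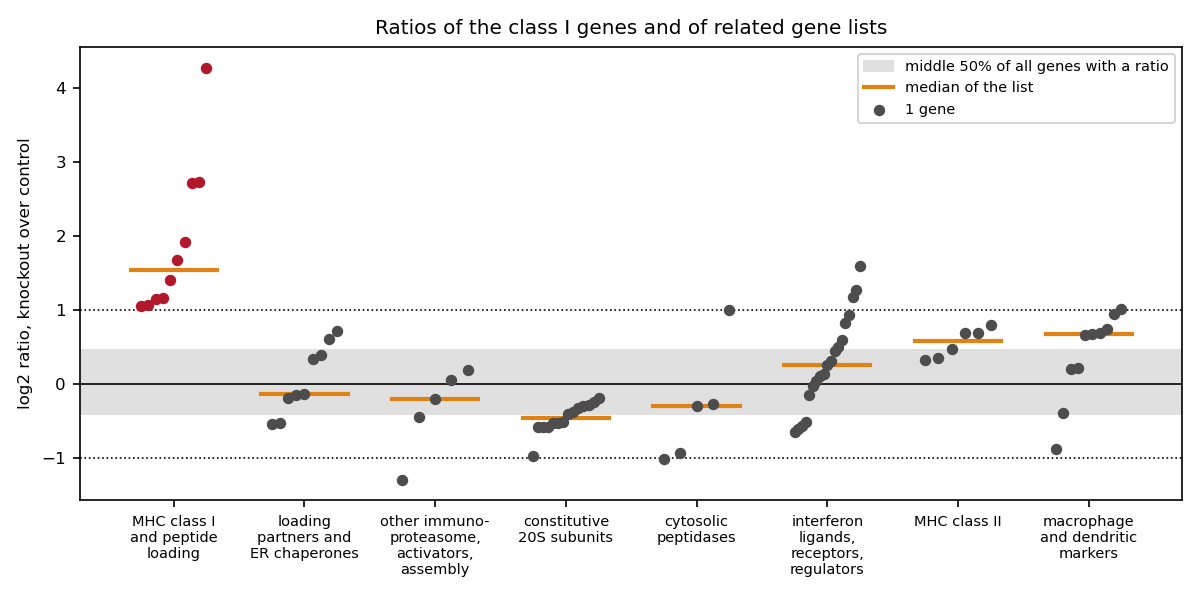
Log2 ratio of knockout over control (vertical axis) of each gene with a ratio in the class I and peptide loading genes (red) and in 7 related lists (grey), with the list median as a bar, dotted lines at 2-fold and the band showing the middle 50% of all genes. The red points lie between 1.06 and 4.27, and the constitutive 20S subunits between -0.96 and -0.18.

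The interferon ligand genes Ifng and Ifnb1 were under the floor on both arrays. Ifng had a signal of 3.15 in the knockout and 0.30 in the control, and Ifnb1 had 1.40 and 2.87. Other interferon ligands were not analysed here. Of the 19 receptor and regulator genes with a ratio, 3 were past 2-fold, all higher, and the median log2 ratio was 0.26. Stat2, a part of an interferon-activated transcription factor complex, had 56.1 in the knockout and 18.5 in the control (3.03-fold higher). Ifngr2, a chain of the interferon-gamma receptor, had 458 in the knockout and 190 in the control (2.41-fold higher), and its other probe set with a ratio gave a log2 ratio of 0.91. Irf1, a transcription factor that binds class I and Tap1 promoters, had 391 in the knockout and 173 in the control (2.26-fold higher).

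The other receptor chains differed little. Ifngr1 had 86.3 in the knockout and 95.4 in the control, Ifnar1 had 88.1 and 70.8, and Ifnar2 had 160.2 and 163. The brightest of the rest were the kinases Jak2, with 1936 in the knockout and 1285 in the control, and Jak1, with 435 and 308, and the Y box factor Nfyc, with 519 and 381. Nlrc5, the class I transactivator, was not analysed here.

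MHC class II genes, which professional antigen-presenting cells carry, had 6 ratios, all above 0 and, with H2-DMb2 as a bound, none past 2-fold, with a median of 0.58. H2-Aa had 170 in the knockout and 135 in the control, H2-Eb1 had 112 and 69.6, and H2-Ab1 had 70.3 and 50.7. These are the brightest probe sets. The other one of H2-Aa gave a log2 ratio of 0.96, near the limit, and the other one of H2-Ab1 gave 0.51. The class I median was 1.54, and this difference between the lists was not tested.

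Markers of the epithelium were present: 8 of 8 measured markers were over the floor on both arrays, among them Krt8 (4289 in the knockout and 4220.45 in the control), Krt18 (4202 and 3180) and Cldn7 (3341 and 3349), with a summed signal of 21220 in the knockout and 19793 in the control. Markers of other cells that carry class I molecules were also present. Of 13 macrophage and dendritic cell markers, 10 were over the floor in the knockout and 9 in the control, with summed signals of 827 and 588. Of these, 1 was at least 2-fold higher, C1qa, with 67.4 in the knockout and 33.2 in the control. Of the 10 with a ratio, 8 lay above 0 and 2 below, with a median log2 ratio of 0.67. The brightest others were Lyz2, with 296 in the knockout and 154 in the control (1.93-fold higher), Csf1r, with 144 and 85.8 (1.68-fold higher), and Tyrobp, with 66.9 and 57.5. The 2 below 0 were Cd68, with 44.4 in the knockout and 81.1 in the control (1.83-fold lower), and Fcer1g, with 29.8 and 39.1. Over all genes with a ratio, 4433 of 8306 lay above 0. Most measured macrophage and dendritic cell markers thus had the direction of the class I genes, and 2 did not. Pan-leukocyte markers had summed signals of 357 in the knockout and 472 in the control, and 3 of 6 lay above 0 and 3 below. The brightest were Laptm5, with 118 in the knockout and 227 in the control, Cd52, with 79.7 and 99.1, and Lcp1, with 64.1 and 75.05.

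T and NK cell markers had summed signals of 99.3 in the knockout and 81.9 in the control, with 2 of 13 over the floor in the knockout and 1 in the control. Those with a ratio were Klrd1, with 21.5 in the knockout and 16.7 in the control, and Gzma, with 19.3 in the knockout and 5.39, under the floor, in the control (at least 1.37-fold higher). The other 11, with Cd3d, Cd3e and Cd3g among them, were under the floor on both arrays. Of the 4 B cell markers, 0 were over the floor in the knockout and 1 in the control, Cd79b, with 7.79 in the knockout and 44.5 in the control, and of 5 neutrophil markers 0 on either array. Stromal markers summed to 3542 in the knockout and 2566 in the control, with a median log2 ratio of 0.34, and endothelial markers to 63.9 and 71.7. Smooth muscle markers summed to 99.8 in the knockout and 137 in the control. The part of these cells in the class I signals was not tested.

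Stat3 itself had a lower signal on the array labelled knockout: 186 in the knockout and 582 in the control in 1 probe set, and 160.0 and 430.0 in another, while the other one was under the floor on both. Whether these probe sets lie in the deleted part is not known here. The arrays had the same mean signal after trimming, 150.1. Hybridisation spike-ins had log2 ratios of -0.26 to 0.36 and poly-A spike-ins of -0.33 to 1.06, so the upper end of the poly-A range reached the lowest member ratio. The ratio of 3' to 5' signal was 0.699 in the knockout and 0.736 in the control for Gapdh.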

How the data were processed

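RNA of 2 samples, 1 Stat3 knockout and 1 control, was read on 1 array each, and groups were taken from the genotype labels. The authors deposited 1 intensity per probe set and array, on a linear scale; MAS5 and the software Affymetrix Expression Console 1.1 are named in the submitters' processing notes. Equal trimmed means (2% of values left out at each end) show that the arrays had been scaled before deposit. Per the labels' protocols, 100 ng of total RNA was labelled; their extraction text names human stromal cells. Detection calls, probe-level values and scan batch were not used here.

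Signals under the floor (40th percentile) were set to it, and log2 ratios of knockout over control were computed without a pseudocount in Python 3.11.15. Among the probe sets naming a gene alone, the brightest by mean log2 signal stood for it, or, for H2-Q7 and H2-T23, listing it with others. Of 20380 probe sets with 1 gene, 20351 gene IDs matched RefSeq (GRCm38.p6), which gave the names. The ratio step was tested on simulated data. Named genes of a list were all those past 2-fold, up to 6, and the 3 brightest of the rest. This included marker lists of epithelium and leukocytes. Ligands and receptors of interferons, the constitutive partners of inducible subunits and the Cd3 genes were also named. Cd68, Fcer1g and Psmb1 were added for their values in the other direction. Members and lists were chosen with earlier results of these data known. Alternatives changed the scaling, the floor, the fold limit or the probe sets.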

Additional observations from a re-analysis of the deposited data

How the results depend on the processing

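Every member gene that kept a probe set was at least 2-fold higher in the knockout under each alternative scaling, floor and choice of probe sets tried, in 87 of 87 single ratios, of which 82 moved by less than 0.28 (log2), the spread between probe sets. At 3-fold, 5 member genes, 11 member probe sets and 144 of all genes were higher. With _x_at, _s_at and _a_at probe sets (suffixes for designs that can read several transcripts) left out, B2m, Tap2 and Psmb8 had none left; the median of the other 7 members was 2.72, and 9 of 9 member probe sets were higher, though those of H2-K1, H2-Q7 and H2-T23 among them still list several genes. H2-K1 was then read by the probe set that also lists H2-Q5 and H2-D1 by a dimmer one, with ratios of at least 4.45 and 1.66. With a floor at the 60th percentile H2-Q7 had 3.58 and Tap2 1.21, and with the floor added as a pseudocount H2-Q7 had 3.86. Over all genes, 348 were at least 2-fold higher and 449 lower with the floor at the 60th percentile, 1096 and 1113 at the 20th, and 1929 and 1774 with no floor, where higher calls outnumbered lower ones; loess gave 529 higher and 908 lower. At the 20th percentile and with no floor, 1 and 2 member probe sets were lower, all under the main floor on both arrays. With centring on the median, the median was 1.60 in the members and 0.11 over all genes, the second being a measure added after seeing the data. The 14 constitutive 20S subunits, each read by its brightest probe set, stayed under 0 under each scaling. No paired analysis was possible because each group is 1 array. Dim probe sets limit what can be said of Ifng, Ifnb1 and 3 of the 4 Tap1 probe sets.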
